A study of Homo sapiens with 32 samples.

Results

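The comparison asked what a short hairpin RNA (shRNA) against SMARCA2 did to gene expression in H1299 cells that also expressed a wild-type (WT) SMARCA2 cDNA. H1299 is a human non-small cell lung carcinoma line. The members were chosen by their titles: 3 arrays of S2sh7 WT cells, which carry the SMARCA2 hairpin and the WT cDNA, and 3 arrays of shLuc WT cells, which carry a hairpin against luciferase and the same cDNA. They make up 6 of the 32 arrays of the series, of which 24 are of H1299. A further 3 pairs of H1299 groups, again 3 arrays per group, carried the same hairpins with a bromodomain-mutant SMARCA2 cDNA (BRD), an ATPase-dead SMARCA2 cDNA (ATPdead) or GFP in place of the WT cDNA. The cells were isogenic stable lines, no agent was added, and all 24 H1299 arrays carry 1 batch label. Every group carries a hairpin and a cDNA, so no unmodified cells stand beside them. The labels place the target of S2sh7 in the ATPase domain of SMARCA2. They name neither the promoter of the cDNA nor a silent change that would hide it from the hairpin, and they do not say whether a line was 1 clone or a pool. Replicates are labelled biological, without a word on separate cultures or infections. The p-values therefore measure the spread among these samples alone, which may be technical.

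SMARCA2 and SMARCA4 are the alternative ATPase motors of SWI/SNF complexes, which use ATP to slide and evict nucleosomes and so open promoters and enhancers to transcription factors. The bromodomain of these proteins binds acetylated lysine, and the ATPase domain drives remodelling. Lung carcinomas that have lost SMARCA4, as H1299 has, depend on SMARCA2 for this activity.

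RNA was read on Affymetrix HG-U133 Plus 2.0 arrays, and the deposited values are RMA intensities on a linear scale, with 1 probe set kept per gene. Of 19775 genes, 14695 passed a filter on low values (log2 over 5, an intensity of 32, in at least 3 of the 32 arrays) and were tested in limma on log2 values over the 24 H1299 arrays. Array medians were 26.7 to 27.2 in S2sh7 WT and 26.7 to 27.3 in shLuc WT, and arrays of a group correlated at 0.998 or more. The log2 ratio of 3′ to 5′ ACTB probe sets, a sign of RNA quality, was 0.238 to 0.251 in S2sh7 WT and 0.235 to 0.272 in shLuc WT. The number of arrays limits the precision, and in such bulk RNA fewer cells with a transcript and less of it per cell cannot be told apart. The mesenchymal marker VIM, which is high in this line, read 13963 to 14288 in S2sh7 WT and 13681 to 13994 in shLuc WT arrays. Epithelial markers stood apart from each other. The keratin KRT8 read 1242 to 1290 in S2sh7 WT and 1547 to 1640 in shLuc WT arrays. The keratin KRT18 read 5981 to 6203 and 7821 to 8013 in the same groups. EPCAM read 6.49 to 8.47 and 6.32 to 7.85 there, well under the filter level, as did the leukocyte marker PTPRC. Defining lung markers were near that level too, with NKX2-1 at 46.2 to 51.0 in S2sh7 WT and 45.0 to 51.3 in shLuc WT. No marker of leukocytes and endothelium (9 tested) or of fibroblasts (6 tested) was called with WT, where 26.5% of all genes were. With so few tested this says little, and only 4 and 3 of them were over the filter level in all 6 arrays. With GFP, 3 of the 9 were called higher and none of the 6 was called. With WT the summed intensities overlapped (380.1 to 389 in S2sh7 WT and 377 to 399 in shLuc WT for the first list, 283 to 306 in S2sh7 WT and 286 to 296 in shLuc WT for the second).

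The hairpin lowered SMARCA2 RNA in the presence of the WT cDNA. A probe set that did not rise with the cDNA read 26.4, 24.9 and 29.9 in the S2sh7 WT arrays, against 63.4, 73.3 and 70.2 in the shLuc WT arrays. The groups did not overlap, and the signal that was left was 39.2% of that in shLuc WT cells (log2 fold change -1.35, SE 0.0986, limma adjusted p = 6.56e-09, over 32893 probe sets, of which 10.4% were called lower). With GFP in place of the cDNA the same probe set read 29.3, 32.3 and 24.9 in the S2sh7 GFP arrays, against 71.6, 63.2 and 77.1 in the shLuc GFP arrays, and 40.7% was left. The S2sh7 readings lay near the filter level of 32. Another SMARCA2 probe set, which rose with the cDNA, read 91.2, 65.3 and 73.8 in the S2sh7 WT arrays, against 118, 107 and 139 in the shLuc WT arrays, and 21.8, 19.9 and 35.5 in the S2sh7 GFP arrays, against 43.7, 43.6 and 40.4 in the shLuc GFP arrays. It was lower in S2sh7 WT than in shLuc WT cells (log2 fold change -0.67, SE 0.161, limma adjusted p = 0.00525). It was higher in S2sh7 WT than in shLuc GFP cells, which have neither the SMARCA2 hairpin nor the cDNA (log2 fold change 0.84, SE 0.161, limma adjusted p = 0.00109; 6.38% of probe sets were called higher). With the hairpin its signal was 63.0% of that in shLuc WT cells. No other SMARCA2 probe set tested was called higher in that contrast. The first probe set (-1.39 log2), the brightest over all arrays, used for the gene (-1.11), and a further one (-0.72) were called lower in S2sh7 WT than in shLuc GFP cells (limma adjusted p = 9.14e-09, 2.70e-07 and 2.87e-04, where 10.1% of probe sets were called lower). The last of these rose with the cDNA under S2sh7 (0.64, limma adjusted p = 0.00344, where 2.22% of probe sets were called higher) and averaged 31.8 in S2sh7 WT cells and 51.9 in shLuc GFP cells. Whether SMARCA2 RNA in S2sh7 WT cells was above or below that of shLuc GFP cells thus differed by probe set. Of the 5 SMARCA2 probe sets tested, 4 were called lower; the exception was dim, at 32.9 in S2sh7 WT and 31.7 in shLuc WT. The part of the transcript that each probe set reads was not analysed here, and protein was not measured.

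SMARCA4, which encodes the other ATPase of the complex, read 136, 122 and 125 in the S2sh7 WT arrays, against 157, 152 and 173 in the shLuc WT arrays in its brightest probe set, and the groups did not overlap (log2 fold change -0.33, SE 0.0660, limma adjusted p = 8.56e-04). Of 7 SMARCA4 probe sets tested, 4 were called lower and 3 were not. The dimmest of the 4 averaged 12.5 in S2sh7 WT and 15.0 in shLuc WT cells, well under the filter level, so its call is uncertain. With GFP it averaged 13.4 under S2sh7 and 13.0 under shLuc, and was not called. Another of the 4 fell by little with WT (-0.14 log2, limma adjusted p = 0.037). With GFP the brightest probe set read 106, 111 and 113 in the S2sh7 GFP arrays. The shLuc GFP arrays read 182, 157 and 163 (log2 fold change -0.60). The difference between the effects, 0.27 log2, did not pass the test (limma adjusted p = 0.15).

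The 5 genes given as markers had a large hairpin effect when the WT cDNA was present. They are also the largest rises and the largest fall among the genes ranked in this contrast. Their sizes and p-values are therefore a description. SPP1, CRH, MAP2 and MMP1 rose and ATF3 fell. SPP1, which encodes the secreted matrix phosphoprotein osteopontin, read 1787, 1832 and 1737 in the S2sh7 WT arrays, against 223, 205 and 226 in the shLuc WT arrays. The S2sh7 WT arrays lay far above all 3 shLuc WT arrays, with no overlap (log2 fold change 3.03, SE 0.0379, limma adjusted p = 4.30e-21). CRH, the corticotropin-releasing hormone of the hypothalamic stress axis, read 218, 217 and 223 in the S2sh7 WT arrays, against 55.3, 53 and 45.7 in the shLuc WT arrays. The S2sh7 WT arrays lay close together and far above the others (log2 fold change 2.10, SE 0.0667, limma adjusted p = 4.01e-14). MAP2, a microtubule-binding protein of neuronal dendrites, read 213, 181 and 186 in the S2sh7 WT arrays, against 68.1, 67.2 and 78.0 in the shLuc WT arrays (log2 fold change 1.44, SE 0.0785, limma adjusted p = 7.79e-11). MMP1, the interstitial collagenase, read 134, 117 and 129 in the S2sh7 WT arrays, against 51.1, 52.3 and 56.6 in the shLuc WT arrays, again without overlap (log2 fold change 1.25, SE 0.0768, limma adjusted p = 4.41e-10). ATF3, a basic leucine zipper factor induced by stress, read 152, 148 and 158 in the S2sh7 WT arrays, against 424, 468 and 451 in the shLuc WT arrays. All 3 S2sh7 WT arrays lay far below the lowest shLuc WT array (log2 fold change -1.55, SE 0.0543, limma adjusted p = 1.51e-13). In limma, 26.5% of all genes tested were called with WT, 14.9% higher and 11.6% lower, and the arrays of 40% of genes did not overlap between the 2 groups (S2sh7 WT above for 22.8% and below for 17.2%).

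**Figure D1:**
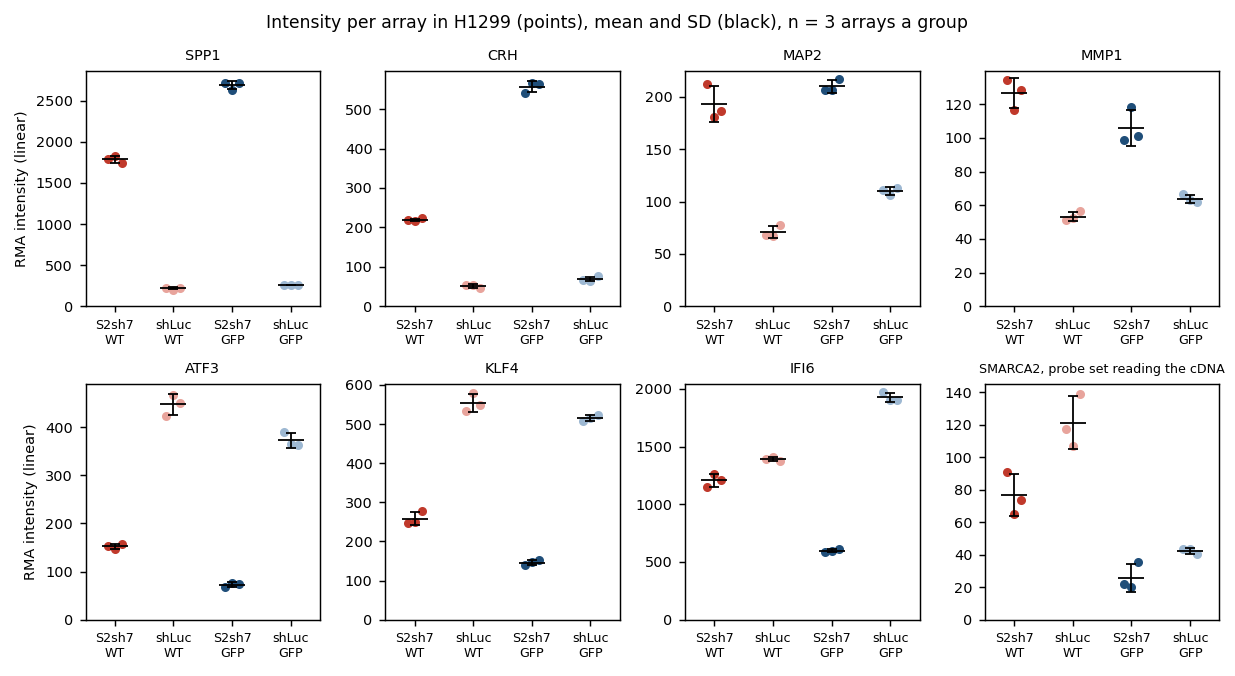
RMA intensity on a linear axis for 7 genes and for a SMARCA2 probe set that rose with the cDNA, in S2sh7 WT, shLuc WT, S2sh7 GFP and shLuc GFP cells. Points are arrays, and black marks the mean and SD of 3 arrays. The panel title says that the SMARCA2 probe set reads the cDNA, which was not tested. SPP1 averaged 1786 in S2sh7 WT cells and 218 in shLuc WT cells, while IFI6 averaged 1207 and 1394 in these groups and 599 in S2sh7 GFP cells.

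The hairpin with WT SMARCA2 called 2192 genes higher and 1703 lower, most of them by little. At least 2-fold, 7 genes (0.0476%) were higher and 15 (0.102%) lower, and at least 1.5-fold, 47 were higher and 137 lower. After the markers, the largest rises were those of ID2 (1.13 log2), an inhibitor of basic helix-loop-helix factors, GASK1B (1.11), DUSP10 (1.09), a phosphatase that acts on p38 and JNK, CA11 (1.0), a carbonic anhydrase-related protein, and EOMES (0.96), a T-box factor of mesoderm and brain development. ID2 read 423, 394 and 415 in the S2sh7 WT arrays, against 184, 177 and 203 in the shLuc WT arrays. DUSP10 read 146, 165 and 161 in the S2sh7 WT arrays, against 71.0, 72.0 and 78.0 in the shLuc WT arrays. The groups did not overlap for either gene (limma adjusted p = 1.20e-11 and 1.42e-11). The other rises named by rank were APLP1 (0.93), of the amyloid precursor family, the lipid carrier APOE (0.89), SFT2D2 (0.87), the receptor ERBB3 (0.86), the WNT antagonist DKK1 (0.84) and the ephrin receptor EPHA7 (0.83). ERBB3 was dim, at 32 ± 0.805 in S2sh7 WT cells and 17.9 ± 3.94 in shLuc WT cells (SD, n = 3). DKK1 was bright, at 596 ± 34.1 in S2sh7 WT cells and 333 ± 8.29 in shLuc WT cells.

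The largest falls after ATF3 were those of the neuropeptide gene SPX (-1.34 log2), the monoacylglycerol lipase MGLL (-1.19), the zinc finger repressor ZNF568 (-1.16) and the interferon-induced GTPase GBP1 (-1.13). GADD45A, a growth arrest and DNA damage gene, read 1479, 1363 and 1373 in the S2sh7 WT arrays, against 2923, 3041 and 3076 in the shLuc WT arrays. KLF4, a Krüppel-like transcription factor, read 248, 249 and 278 in the S2sh7 WT arrays, against 534, 581 and 548 in the shLuc WT arrays. EGR1, an immediate early zinc finger factor, read 395, 379 and 391 in the S2sh7 WT arrays, against 798, 820.4 and 812 in the shLuc WT arrays. For each of these 3 genes the S2sh7 WT arrays were far below the shLuc WT arrays (limma adjusted p = 3.43e-14, 7.28e-12 and 4.42e-14). AOX1 (-1.08), an aldehyde oxidase, TRAF1 (-1.07), an adaptor of TNF receptors, SERPINA1 (-1.07), which encodes alpha-1 antitrypsin, the vesicle motor MYO5B (-1.07), the collagen-binding glycoprotein SPARC (-1.04) and the actin-oxidising enzyme MICAL2 (-1.01) fell too. SPX and SPARC were dim under the hairpin, at 20.9 and 18.8 in S2sh7 WT cells, against 52.8 and 38.9 in shLuc WT cells. G0S2, an inhibitor of triglyceride lipase that was named through the lipid list, read 777, 749.7 and 739 in the S2sh7 WT arrays, against 1465, 1526 and 1541 in the shLuc WT arrays (log2 fold change -1.0, SE 0.0318, limma adjusted p = 4.01e-14).

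**Figure D2:**
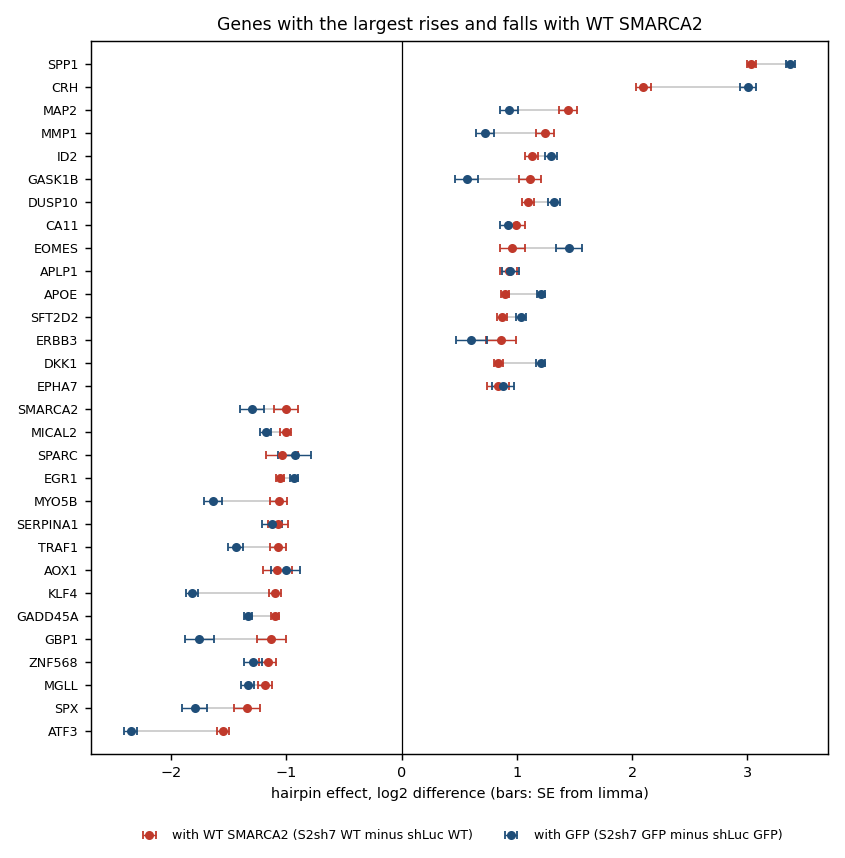
Hairpin effect (log2 difference, horizontal axis, with the SE from limma) for the 15 largest rises and 15 largest falls with WT SMARCA2, shown with WT (red, S2sh7 WT minus shLuc WT) and with GFP (blue, S2sh7 GFP minus shLuc GFP). The genes were ranked on the red values, so these are a description; MAP2 stood at 1.44 with WT and 0.93 with GFP, and ATF3 at -1.55 with WT and -2.35 with GFP.

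Most genes of the integrated stress response list were lower. Like the other lists, it was written with earlier results of these data known, so its counts are a description. The pathway slows translation through phosphorylation of eIF2 and raises the translation of ATF4, which then activates genes of amino acid supply. Of 35 tested, 27 were called lower with WT, 0 higher and 8 neither, and their median was -0.37 log2 beside 0.02 over all genes tested. Over all genes 11.6% were called lower and 14.9% higher, to set beside each list below. ATF4 itself did not pass (-0.02 log2, limma adjusted p = 0.59). DDIT3, the proapoptotic factor CHOP, read 414, 431 and 422 in the S2sh7 WT arrays, against 685, 734 and 678 in the shLuc WT arrays (log2 fold change -0.73, SE 0.0464, limma adjusted p = 7.04e-10). TRIB3, a pseudokinase that restrains this pathway, fell by 0.72 on the log2 scale (limma adjusted p = 2.61e-11). ASNS, asparagine synthetase, read 2141, 2171 and 2106 in the S2sh7 WT arrays, against 2703, 2740.2 and 2758 in the shLuc WT arrays (log2 fold change -0.35, SE 0.0263, limma adjusted p = 5.71e-09), and with all its probe sets averaged it was -0.12 and not called. The amino acid transporter subunit SLC3A2 stood at -0.41. With GFP, 27 of these 35 were called lower and the median was -0.41, where 29.7% of all genes were called, 13.6% higher and 16.1% lower. The difference between the effects was called for 3 genes, all higher, with a median of 0.08 beside 0.01 over all genes, where 1.82% were called higher. Under the other scalings 1 to 4 were called, and ATF3 was 1 of the 3.

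ATF4 and C/EBP factors bind a composite element in the promoters of such genes. The sequences of ATF3 and ASNS show 2 matches to its letters in genes that fell. They are the 250 bases before the annotated start, 5′ to 3′ on the gene's strand, from RefSeq on GRCh38.p14, and the letters TGATGNAA, searched on both strands, are in capitals.
ATF3 (chr1:212565157-212565406, plus strand): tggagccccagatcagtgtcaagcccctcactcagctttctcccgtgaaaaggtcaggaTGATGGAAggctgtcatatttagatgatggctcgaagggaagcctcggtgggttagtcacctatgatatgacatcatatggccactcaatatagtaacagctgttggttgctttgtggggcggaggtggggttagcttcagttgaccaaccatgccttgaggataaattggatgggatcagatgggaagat
ASNS (chr7:97872409-97872658, minus strand): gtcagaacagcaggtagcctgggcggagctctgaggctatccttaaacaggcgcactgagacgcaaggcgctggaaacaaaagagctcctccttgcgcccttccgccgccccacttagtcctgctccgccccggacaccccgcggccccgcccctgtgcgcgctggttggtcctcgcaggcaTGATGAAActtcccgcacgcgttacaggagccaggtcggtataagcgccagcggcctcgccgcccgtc
The match began at position -191 from the start of ATF3 and at -68 in ASNS. In windows of 250 bases before to 50 after the start, 7 of the 29 promoters of the list that were found held the letters (24.1%), against 3.63% of 34796 distinct promoters. Each gene of the list was read at its first listed start only, as in the sequences above. Which start these cells used was not tested, so the ATF3 and ASNS windows need not hold the promoter in use. The 34796 can hold several starts of a gene, so the shares are on unlike units. Of the 7 genes with a match 6 were called lower with WT, with a median of -0.38, and of the 22 without one 16 were, with a median of -0.29. A match is a description of the letters and shows no bound factor.

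Aminoacyl tRNA synthetases, which charge tRNAs and are in part ATF4 targets, shared the direction with small changes. Of 17 tested, 7 were called lower and 0 higher (median -0.07), for example CARS1 (-0.37), GARS1 (-0.20) and TARS1 (-0.20), the cysteinyl, glycyl and threonyl enzymes. ER chaperones and their regulators, which serve the unfolded protein response, were mixed, with 6 of 22 called higher and 3 lower (median -0.01). XBP1 (-0.42), a factor of that response, and HERPUD1 (-0.32), of the degradation machinery, fell, and DNAJB9 (0.22), a co-chaperone, and PDIA6 (0.12), a disulfide isomerase, rose. With all its probe sets averaged DNAJB9 was at 0.12 and not called, nor was PDIA6 in a fit of the 6 arrays alone.

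Immediate early genes, which are switched on within minutes by growth factors and stress, were mostly lower. Of 26 tested, 17 were called lower and 2 higher (median -0.24). Besides KLF4 and EGR1, IER3 read 276, 298 and 309 in the S2sh7 WT arrays, against 567, 578 and 578 in the shLuc WT arrays (log2 fold change -0.97, SE 0.0423, limma adjusted p = 3.91e-12). KLF10, which is induced by TGF-beta, stood at -0.70 log2. The AP-1 and small MAF factors, basic leucine zipper proteins that pair with each other, had 6 of 11 called lower and 1 higher (median -0.20). MAFF stood at -0.73, FOS at -0.58, FOSL1 at -0.48, JUN at -0.40 and FOSL2 at -0.38. The member called higher was JUND (0.10), named here after its value was seen. JUN read 923, 926 and 959 in the S2sh7 WT arrays, against 1239, 1204 and 1255 in the shLuc WT arrays (log2 fold change -0.40, SE 0.0340, limma adjusted p = 3.97e-08).

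Brakes on MAP kinases moved both ways. Of 17 tested, 5 were called higher and 4 lower (median 0.03). DUSP10 and DUSP6, phosphatases of p38 and JNK and of ERK, stood at 1.09 and 0.37, and SPRY2, an inhibitor of receptor tyrosine kinase signalling, at 0.37. The phosphatases DUSP5 (-0.64) and DUSP7 (-0.35) fell. DUSP6 read 952, 936 and 942 in the S2sh7 WT arrays, against 717, 735 and 743 in the shLuc WT arrays. DUSP5 read 488, 474 and 534 in the S2sh7 WT arrays, against 774, 782 and 767 in the shLuc WT arrays. The arrays overlapped for neither. Genes of EGF receptor signalling moved both ways too, with 3 of 10 called higher and 4 lower. The ligands HBEGF (-0.86) and TGFA (-0.67) and the receptor inhibitor LRIG1 (-0.69) fell, and the receptor ERBB3 (0.86) and the feedback inhibitor ERRFI1 (0.38) rose.

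Targets of YAP and TAZ, the coactivators that the Hippo pathway restrains, fell in part: of 22 tested, 15 were called lower and 1 higher (median -0.18 log2). AXL, a receptor tyrosine kinase, read 5395, 5378 and 5519 in the S2sh7 WT arrays, against 7728, 7754 and 7633 in the shLuc WT arrays (log2 fold change -0.50, SE 0.0248, limma adjusted p = 1.72e-11). AJUBA, a LIM protein of cell junctions, stood at -0.62, AMOTL2, an angiomotin that holds YAP back, at -0.47, and the secreted FSTL1 at -0.69. CCN2, the connective tissue growth factor, read 1621, 1540.2 and 1562 in the S2sh7 WT arrays, against 1746, 1795 and 1798 in the shLuc WT arrays, a small fall (log2 fold change -0.18, SE 0.0517, limma adjusted p = 0.0152) that was -0.16 and not called without S2sh7 WT replicate 2. Of 23 genes of the actin cytoskeleton, 14 were called lower and 2 higher (median -0.15). The tropomyosin TPM1 read 4460.5, 4204 and 4172 in the S2sh7 WT arrays, against 6302, 6096 and 6108 in the shLuc WT arrays (log2 fold change -0.53, SE 0.0353, limma adjusted p = 1.31e-09). TPM4 stood at -0.60, the crosslinker ACTN1 at -0.38, LIMA1 at -0.40 and TAGLN2 at -0.37.

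Matrix genes did not share 1 direction, but in each list of this paragraph the share called higher was near the 14.9% of all genes. The share called lower was above the 11.6% of all genes. Collagens and their enzymes had 8 of 26 called lower and 4 higher. The crosslinking enzyme LOX read 374, 335 and 367 in the S2sh7 WT arrays, against 203, 189.8 and 214 in the shLuc WT arrays (log2 fold change 0.82, SE 0.0565, limma adjusted p = 1.89e-09), while its relative LOXL2 stood at -0.77, and the collagens COL13A1 at -0.87, COL12A1 at -0.63 and COL18A1 at -0.40. Matrix glycoproteins had 9 of 26 called lower and 4 higher, with SPP1 the largest rise. TGFBI, a matrix protein induced by TGF-beta, read 1342, 1236 and 1333 in the S2sh7 WT arrays, against 2257, 2341 and 2328 in the shLuc WT arrays (log2 fold change -0.83, SE 0.0331, limma adjusted p = 8.91e-13), and thrombospondin THBS1 stood at -0.94 and the laminin chain LAMB3 at -0.59. Among proteases and the plasminogen system 8 of 22 were called lower and 4 higher. SERPINE2, which inhibits plasminogen activators and thrombin, read 524, 522 and 536 in the S2sh7 WT arrays, against 824, 833 and 833 in the shLuc WT arrays (log2 fold change -0.65, SE 0.0436, limma adjusted p = 1.31e-09). The urokinase PLAU stood at -0.40, and the metalloproteinase inhibitors TIMP1 and TIMP2 moved apart, at 0.38 and -0.38.

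Of 17 integrins and the hyaluronan receptor, 6 were called lower and 1 higher, with the laminin-binding chain ITGA3 at -0.42 log2 and the chain ITGAV at 0.20. Mesenchymal genes had 7 of 18 called lower and none higher, among them the repressor SNAI2 (-0.86), the homeobox factor PRRX1 (-0.44) and N-cadherin CDH2 (-0.30). Epithelial genes had 7 of 23 called lower and none higher. They were led by keratins: KRT80 stood at -0.79, KRT7 at -0.79, KRT18 at -0.38 and KRT8 at -0.33. Falls thus stood in both lists, and VIM did not pass (0.03, limma adjusted p = 0.353).

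KRAB zinc finger genes of chromosome 19 formed a list with many falls. They encode repressors, many of which silence transposable elements, and lie in clusters. Of 36 tested, 27 were called lower and none higher (median -0.32). ZNF568 read 84.4, 81.8 and 84.1 in the S2sh7 WT arrays, against 179, 190.0 and 192 in the shLuc WT arrays (log2 fold change -1.16, SE 0.0761, limma adjusted p = 9.70e-10). ZNF45 read 689, 651 and 669 in the S2sh7 WT arrays, against 1236, 1252 and 1206 in the shLuc WT arrays (log2 fold change -0.88, SE 0.0341, limma adjusted p = 5.57e-13). ZNF404 (-0.67), ZFP82 (-0.62) and ZNF829 (-0.62) were lower in all arrays too. This list had been drawn with results of these data in view, so its share was set beside all ZNF and ZFP genes of the chromosome. Those genes include the ones on the list, so their share is not independent of it, and the share without the list was not computed. Of those 199, 45 were called lower (22.6%) and 8 higher (4.02%), with a median of -0.04. Elsewhere in the genome 23 of 230 such genes were called lower (10%) and 16 higher (6.96%), and of the other 882 genes of chromosome 19, 49 were called lower (5.56%) and 211 higher (23.9%). With GFP the list had 28 lower and 2 higher (median -0.40), and no difference between the effects was called. Near-identical copies in these clusters can share probes, so single genes are uncertain.

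**Figure D3:**
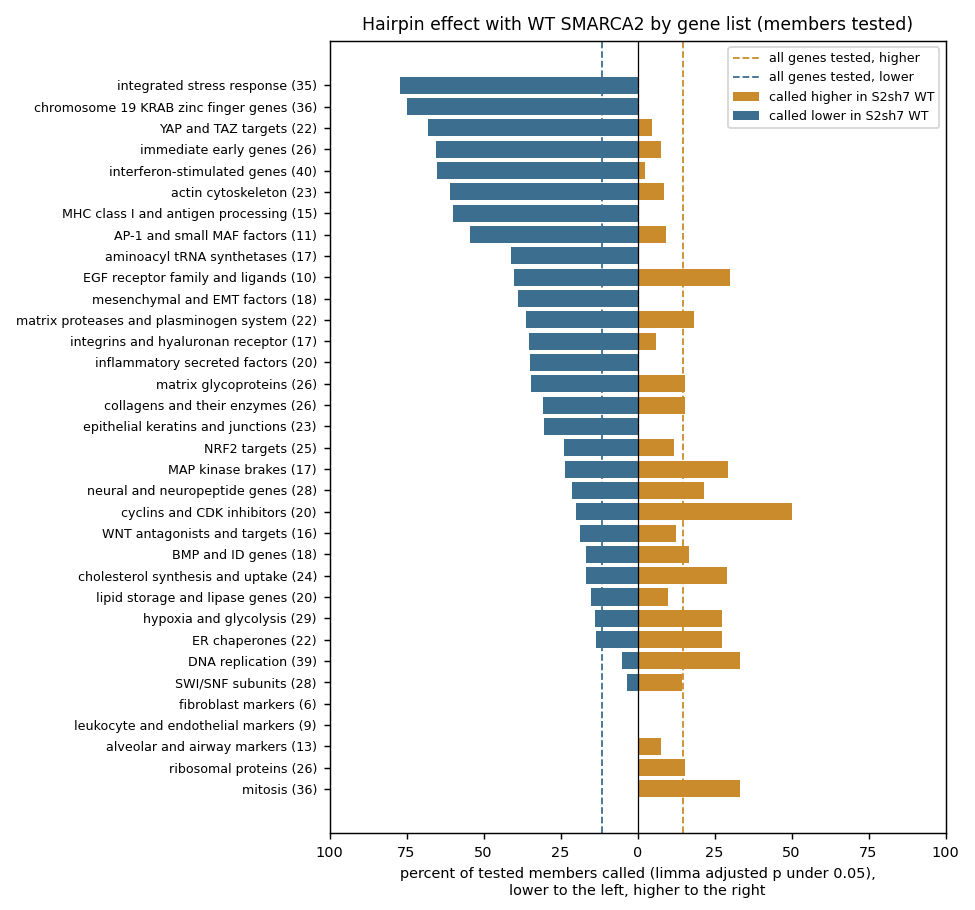
Percent of the tested members of each gene list called lower (blue, to the left) or higher (ochre, to the right) in S2sh7 WT against shLuc WT cells, with the number tested in brackets; dashed lines mark 11.6% lower and 14.9% higher over all 14695 genes. Stress response genes had 27 of 35 lower, while mitosis genes had 12 of 36 higher and 0 lower.

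Among neural and neuropeptide genes, 6 of 28 were called higher and 6 lower, where 14.9% of all genes were called higher and 11.6% lower. CRH and MAP2 rose far more than the granin CHGB (0.45 log2) and the neurofilament protein INA (0.40), and SPX fell. BMP and ID genes had 3 of 18 called higher, with ID2 and the ligand BMP6 (0.52), and 3 lower, with the inhibitory SMAD7 (-0.72), HEY1 (-0.57) and the homeobox gene MSX1 (-0.54). The share called in either direction, 33.3%, was near the 26.5% of all genes. ID1 and ID3, the relatives of ID2, were not called (0.01 and 0.10, limma adjusted p = 0.875 and 0.197). In the WNT list 2 of 16 were called higher and 3 lower, a share of 31.25% that was near that of all genes too. The secreted antagonist DKK1 rose while its relative DKK3 (-0.36), the factor LEF1 (-0.34) and cyclin D1, CCND1 (-0.43), fell. Inflammatory genes had 7 of 20 called lower and none higher. Of these, TNFAIP3 (-0.87) and NFKBIA (-0.42) encode feedback inhibitors of NF-kB rather than cytokines, and IL32 (-0.91), CXCL3 (-0.47, under an intensity of 32 in all 6 H1299 WT arrays) and LIF (-0.36) encode secreted factors.

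Metabolic lists moved both ways, where 14.9% of all genes were called higher and 11.6% lower. Cholesterol genes had 7 of 24 called higher and 4 lower: APOE (0.89 log2), the sterol reductase TM7SF2 (0.66), INSIG1 (0.62), which retains the sterol sensor in the ER, and the lipid transporter STARD4 (0.33) rose, and the synthase HMGCS1 (-0.32) fell. INSIG1 read 505, 480.5 and 454 in the S2sh7 WT arrays, against 322, 297 and 316 in the shLuc WT arrays (log2 fold change 0.62, SE 0.0507, limma adjusted p = 2.07e-08). Hypoxia and glycolysis genes had 8 of 29 called higher and 4 lower. The vasodilator peptide ADM (0.59) and the oxygen sensor EGLN1 (0.30) rose, and PFKFB3 (-0.55), a regulator of glycolysis, the glucose transporter SLC2A1 (-0.42) and pyruvate kinase PKM (-0.35) fell. NRF2 targets had 3 of 25 called higher, with the reductases TXNRD1 (0.19) and NQO1 (0.20), and 6 lower, with the cystine transporter SLC7A11 (-0.43), which the stress response list holds too, and GCLM (-0.32) of glutathione synthesis. The share of NRF2 targets called higher was near that of all genes. Of 20 genes of lipid storage, 3 were called lower, MGLL, G0S2 and the fatty acid ligase ACSL4 (-0.33), and 2 higher. This share of 25% was near the 26.5% of all genes called in either direction. With all probe sets of a gene averaged, ACSL4 (-0.05) and TXNRD1 (0.09) were not called.

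Some cell cycle genes rose slightly, and most were not called. Of 36 mitosis genes 12 were called higher (8 to 14 under the other scalings), none lower and 24 neither (median 0.07 log2 beside 0.02 over all genes), led by the kinesin KIF20A, which read 749, 771 and 772 in the S2sh7 WT arrays, against 635, 644 and 649 in the shLuc WT arrays (log2 fold change 0.25, SE 0.0311, limma adjusted p = 5.12e-06). NDC80 of the kinetochore stood at 0.17 and the kinesin KIF2C at 0.17. Of 39 DNA replication genes 13 were called higher, 2 lower and 24 neither (median 0.05). The helicase subunit MCM6 (0.28), thymidylate synthase TYMS (0.18) and RPA2 (0.17), a subunit of the single-strand binding complex, were among the rises. Of 20 cyclins, CDKs and their inhibitors 10 were called higher and 4 lower. CDKN2D (0.34), an inhibitor of CDK4 and CDK6, RBL2 (0.29), of the retinoblastoma family, and CDK4 (0.14) rose, and CCND1 (-0.43) and CCND2 (-0.52) fell. Ribosomal protein genes had 4 of 26 called higher, by at most 0.09, and none lower, a share near the 14.9% of all genes, and 2 or 3 were called under the other scalings. Among SWI/SNF subunits other than the ATPases 4 of 28 were called higher, again near the share of all genes, and 1 lower, with SMARCD3 at 0.45, BCL7C at 0.30 and the core subunit SMARCC2 at 0.21 (0.14 and not called with its probe sets averaged). In the list of alveolar and airway markers 1 of 13 was called higher. It was CAV1, a caveolin (0.41), which read 3432 in S2sh7 WT and 2582 in shLuc WT cells and made up most of the list's summed intensity (4018 to 4136 in S2sh7 WT and 3210.4 to 3234 in shLuc WT). SFTPC and NKX2-1, which define the lineage, were not called, and a part of CAV1 in other results was not tested.

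Interferon-stimulated genes kept a small fall when WT SMARCA2 was present. They encode antiviral proteins and are switched on through the interferon response element of their promoters. Of 40 tested, 26 were called lower with WT and 1 higher, with a median of -0.21 log2. With GFP 36 were lower and none higher, with a median of -0.66. The difference between the effects was called for 27, all higher with WT than with GFP, and its median was 0.43. The 27 include IFI35, whose effect was 0.20 with WT and -0.07 with GFP. Over all genes 2.28% of differences were called. Under the other 4 scalings of the arrays 23 to 28 of the 40 differences were called, all of them higher with WT. IFI6, an interferon-induced membrane protein, read 1149.8, 1258 and 1213 in the S2sh7 WT arrays, against 1393, 1410.2 and 1377 in the shLuc WT arrays. With GFP it read 587, 597 and 613 in the S2sh7 GFP arrays, against 1973, 1902 and 1907 in the shLuc GFP arrays. The S2sh7 WT arrays lay between the S2sh7 GFP and the shLuc WT arrays, and the effect was -0.21 log2 with WT and -1.69 with GFP (difference 1.48, SE 0.0591, limma adjusted p = 1.04e-11).

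ISG15, a ubiquitin-like modifier, read 1004, 1112 and 1078 in the S2sh7 WT arrays, against 1209, 1258 and 1229 in the shLuc WT arrays. With GFP it read 711, 772 and 781 in the S2sh7 GFP arrays, against 1698, 1589.8 and 1582 in the shLuc GFP arrays (difference 0.89, SE 0.0790, limma adjusted p = 2.96e-06). IFIT1, which binds viral RNA ends, read 174, 185 and 180.3 in the S2sh7 WT arrays, against 213, 237 and 202 in the shLuc WT arrays. With GFP it read 107, 133 and 134 in the S2sh7 GFP arrays, against 321, 302 and 316 in the shLuc GFP arrays (difference 1.06, SE 0.0989, limma adjusted p = 5.51e-06). The hairpin effect on IFI27 was -0.83 log2 with WT and -2.23 with GFP. That on OAS1, a sensor of double-stranded RNA, was -0.59 with WT and -1.90 with GFP, but all its S2sh7 WT, shLuc WT and S2sh7 GFP arrays were under the filter level of 32 (means 19.8, 29.8 and 11.9), so these sizes are uncertain. IFI44 stood at -0.67 with WT and -1.67 with GFP, IFIT3 at -0.52 and -1.37, IFIT2 at -0.47 and -1.28, and the RNA sensor IFIH1 at -0.30 and -0.74. GBP1 had the largest fall of the list with WT (-1.13), and its difference from GFP did not pass (0.63, limma adjusted p = 0.0772). IRF9, the DNA-binding part of the factor that acts on these promoters, was not called with WT (-0.09, limma adjusted p = 0.433) and stood at -0.83 with GFP. The member called higher with WT was IFI35 (0.20), named here after its value was seen.

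These genes differed by cDNA on both hairpin backgrounds. In S2sh7 WT against S2sh7 GFP cells 23 of the 40 genes were called higher (median 0.23 log2), and in shLuc WT against shLuc GFP cells 18 were called lower (median -0.19). Over all genes 3.35% were called higher in the first contrast and 1.82% lower in the second. For 34 of the 40 the group means ran S2sh7 GFP, S2sh7 WT, shLuc WT, shLuc GFP from low to high. The lowest group was S2sh7 GFP for 38 genes, and the highest was shLuc GFP for 36. MHC class I genes and the antigen-processing machinery, which interferon raises as well, had 9 of 15 called lower with WT and 13 with GFP. For 8 of them the difference was called, always higher with WT (4 to 9 under the other scalings). HLA-B read 2790.4, 2918 and 2893 in the S2sh7 WT arrays, against 3417, 3454 and 3440.5 in the shLuc WT arrays (log2 fold change -0.26, SE 0.0272, limma adjusted p = 5.11e-07), and its effect with GFP was -0.65. The immunoproteasome subunit PSMB8 stood at -0.39 with WT and -0.77 with GFP, and B2M, the light chain of class I, at -0.18 and -0.39. Class I genes are near-identical over long stretches, so their probe sets can share transcripts.

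The promoters of IFI6, ISG15 and IFIT1 are shown because these genes carry the difference and each holds the response element more than once. They are the 250 bases before the start, 5′ to 3′ on the gene's strand, from RefSeq on GRCh38.p14. Capitals mark the letters GAAA, any 2 bases and GAAA again, on either strand, merged where matches overlap.
IFI6 (chr1:27672193-27672442, minus strand): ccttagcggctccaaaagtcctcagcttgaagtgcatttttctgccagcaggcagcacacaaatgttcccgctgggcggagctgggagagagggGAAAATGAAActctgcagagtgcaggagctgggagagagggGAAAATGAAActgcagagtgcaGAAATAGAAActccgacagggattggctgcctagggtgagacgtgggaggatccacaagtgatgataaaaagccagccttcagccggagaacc
ISG15 (chr1:1013247-1013496, plus strand): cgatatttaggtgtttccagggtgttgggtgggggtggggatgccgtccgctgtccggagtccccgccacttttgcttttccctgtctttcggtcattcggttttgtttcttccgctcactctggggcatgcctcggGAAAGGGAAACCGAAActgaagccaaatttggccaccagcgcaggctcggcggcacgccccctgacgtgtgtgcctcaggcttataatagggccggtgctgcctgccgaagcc
IFIT1 (chr10:89392373-89392622, plus strand): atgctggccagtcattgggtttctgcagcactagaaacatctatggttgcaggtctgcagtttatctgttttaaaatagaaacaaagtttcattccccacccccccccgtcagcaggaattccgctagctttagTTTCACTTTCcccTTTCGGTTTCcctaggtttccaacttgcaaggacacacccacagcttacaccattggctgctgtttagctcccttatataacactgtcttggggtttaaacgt
Matches began at -156, -115 and -93 from the start of IFI6, at -113 and -107 in ISG15, where they overlap, and at -116 and -103 in IFIT1, where they lie on the opposite strand. Of 32 interferon gene promoters found, 23 held the letters (71.9%), against 3.57% of 34796 distinct promoters. Here too the list was read at the first listed start of each gene, and the 34796 can hold several. The 23 genes with a match had a median hairpin effect of -0.25 log2 with WT and -0.74 with GFP, and 14 of their differences were called. The 9 without a match had medians of -0.09 with WT and -0.69 with GFP, and 8 differences were called. The absence of the letters says only that this window does not hold them.

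**Figure D4:**
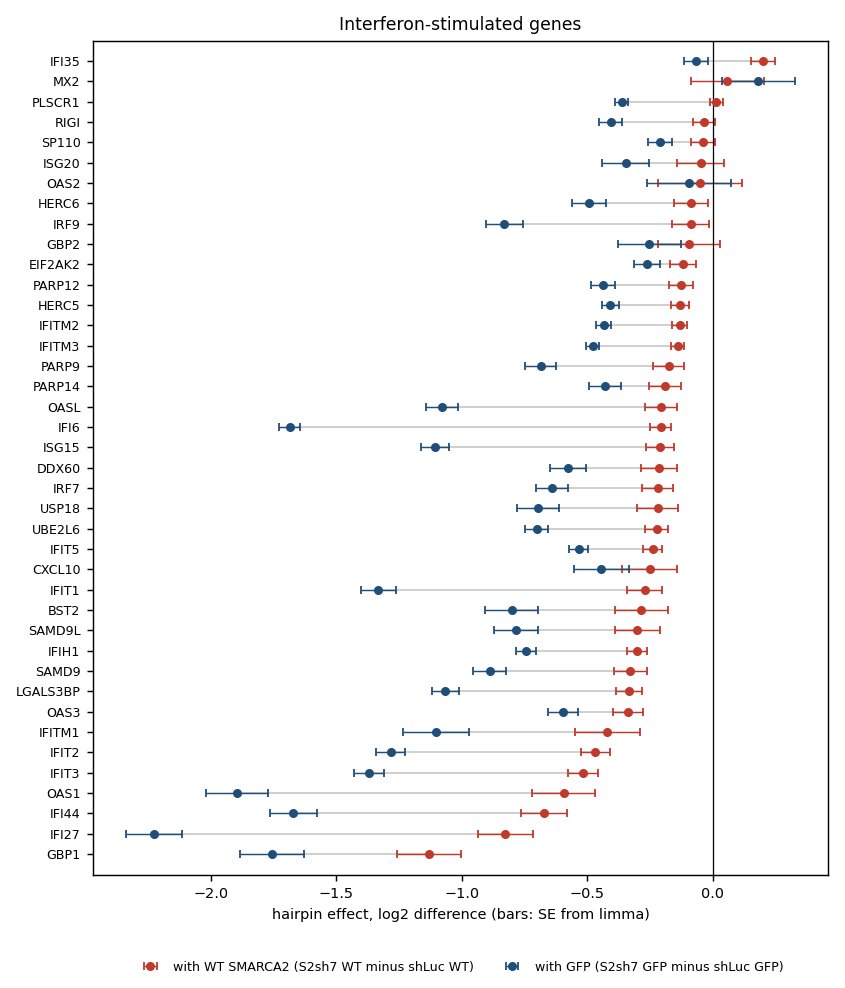
Hairpin effect (log2 difference with the SE from limma, horizontal axis) on the 40 interferon-stimulated genes with WT SMARCA2 (red, S2sh7 WT minus shLuc WT) and with GFP (blue, S2sh7 GFP minus shLuc GFP), ordered by the red value. IFI6 stood at -0.21 with WT and -1.69 with GFP, GBP1 at -1.13 and -1.76, and MX2, dim and not called, at 0.06 and 0.18.

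Across all genes the hairpin effect with WT differed from that with GFP in few. The difference of the effects, WT minus GFP, was called for 335 genes (2.28%), 268 higher (1.82%) and 67 lower (0.456%), and 2575 genes were called in the same direction in both comparisons, which share no arrays. Of the 335, 173 had an effect of the same sign and smaller size with WT, 152 of them falls with GFP and 21 rises. For 33 the effect was larger with WT in the same direction, and for 129 its sign was opposite. Of these 129, only 20 were called in both comparisons, so for most at least 1 of the 2 effects was not called. The split of directions rested on the scaling: with arrays centred on their median over the tested genes, 128 were higher and 181 lower, with repeated quantile normalization 218 and 106, with quantile normalization over the tested genes 192 and 119, and with arrays centred on their medians 274 and 34. Called in the same direction under all 5 were 156 genes, 123 higher and 33 lower. The count was 147 without shLuc GFP replicate 1, 169 without shLuc WT replicate 2, 175 without S2sh7 GFP replicate 1, 200 without shLuc WT replicate 1 and 210 without S2sh7 WT replicate 2.

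At least 2-fold with GFP, S2sh7 raised 10 genes (0.0681%) and lowered 56 (0.381%). All 66 were called in the same direction with WT, and 40 of them had a called difference. The effect that was left with WT, as a share of the log2 effect with GFP, had a median of 71.9% over the 10 rises (range 57.1% to 90.0%) and 64.6% over the 56 falls (range 12.3% to 107%). These genes were chosen on the GFP values, so the shares are a description. IFI6 kept 12.3% of its fall, CRH 69.8% of its rise, KLF4 60.4% of its fall and SPP1 90.0% of its rise. CRH read 540.2, 567 and 563 in the S2sh7 GFP arrays, against 67.7, 64.6 and 76.1 in the shLuc GFP arrays, so the S2sh7 WT arrays, at 219 on average, were far below the S2sh7 GFP arrays (difference of effects -0.91, SE 0.0943, limma adjusted p = 9.84e-06). ATF3 read 67.8, 76.5 and 74.9 in the S2sh7 GFP arrays, against 390.1, 364 and 364 in the shLuc GFP arrays, and its effect was less negative with WT by 0.80 (SE 0.0767, limma adjusted p = 7.39e-06). For LOX, which read 522, 519.8 and 532 in the S2sh7 GFP arrays, against 222, 188 and 201 in the shLuc GFP arrays, the effect was less positive with WT (-0.54, limma adjusted p = 6.73e-04). The effect on SERPINE2 was less negative by 0.77, on KLF4 by 0.72, on TGFBI by 0.54, on the keratin KRT80 by 0.53 and on the motor MYO5B by 0.57. Many other large effects did not differ by the test, among them those on MGLL (0.15, SE 0.0818), CA11 (0.07, SE 0.105) and APLP1 (-0.02, SE 0.107).

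Some hairpin effects were larger with WT than with GFP. MAP2 read 207, 206 and 217 in the S2sh7 GFP arrays, against 111, 106 and 113 in the shLuc GFP arrays, so its S2sh7 levels were close with either cDNA while the shLuc WT arrays lay below the shLuc GFP arrays. Its effect was 1.44 log2 with WT and 0.93 with GFP (difference 0.51, SE 0.111, limma adjusted p = 0.0195). MMP1 read 98.7, 118 and 101 in the S2sh7 GFP arrays, against 66.7, 62.8 and 62.1 in the shLuc GFP arrays, and its effect was 1.25 with WT and 0.72 with GFP (difference 0.52, SE 0.109, limma adjusted p = 0.0151). GASK1B rose by 1.11 with WT and 0.56 with GFP. Its difference had adjusted p = 0.041 in limma, and was not called with quantile normalization over the tested genes. The JUN effect was -0.40 with WT and -0.12 with GFP (limma adjusted p = 0.00295 for the difference). Of the 129 genes whose effects had opposite signs, 72 were called with WT, 19 of them lower and 53 higher, and 20 of the 72 were called with GFP too. The rises included LTBP3, a latent TGF-beta binding protein, at 0.24 with WT and -0.17 with GFP, named here after its values were seen. The falls included FRMD6, a FERM domain protein of the Hippo pathway, at -0.46 and 0.02, the connective tissue growth factor CCN2 at -0.18 and 0.23, the neuron navigator NAV3 at -0.24 and 0.11, and the natural killer receptor gene KIR2DL2, under the filter level of 32 in all arrays of the WT and GFP groups, at -0.30 and 0.28. The fall of KIR2DL2 was not called without the first S2sh7 WT array (-0.23), nor without the first (-0.26) or the second (-0.29) of the shLuc WT arrays. FRMD6 read 455, 393 and 434 in the S2sh7 WT arrays, against 588, 574 and 601 in the shLuc WT arrays. With GFP it read 508, 494 and 501 in the S2sh7 GFP arrays, against 506, 494 and 481 in the shLuc GFP arrays, where the groups were close.

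Fewer genes had a called difference between the effect with WT and that with a mutant cDNA. WT minus BRD was called for 57 genes (0.388%), 43 higher (0.293%) and 14 lower (0.0953%), and WT minus ATPdead for 90 (0.612%), 59 higher (0.401%) and 31 lower (0.211%). IFI6 stood at -0.21 log2 with WT, -0.78 with BRD (limma adjusted p of the difference = 1.42e-04) and -1.20 with ATPdead (limma adjusted p of the difference = 1.27e-08). In the interferon list 9 differences from BRD and 18 from ATPdead were called, all of them higher with WT. The rise of MAP2 was larger with WT (1.44) than with BRD (0.87) or ATPdead (0.89), with limma adjusted p = 0.0276 and 0.0213, and the second of these was not called with arrays centred on their medians. That of CRH (2.10) was smaller than with ATPdead (2.64, limma adjusted p = 0.00569), and its difference from BRD (-0.30) did not pass. The fall of EGR1 was larger with WT (-1.06) than with BRD (-0.78) or ATPdead (-0.57), and LOX and DKK1 rose less with WT than with ATPdead, with differences of -0.57 and -0.50. The BOC, LGALS3BP and PLSCR4 effects differed from BRD by 0.52, 0.48 and 0.58, and the IRF9 and PPL effects from ATPdead by 0.76 and 0.74. With arrays centred on their median over the tested genes, WT minus BRD gave 23 higher and 39 lower, with repeated quantile normalization 42 and 26, with quantile normalization over the tested genes 41 and 28, and with arrays centred on their medians 43 and 6. The count of 57 rested on single arrays and was 11 to 37 without any 1 array other than S2sh7 WT replicate 1, where it was 52. These 3 differences share the 6 WT arrays.

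**Figure D5:**
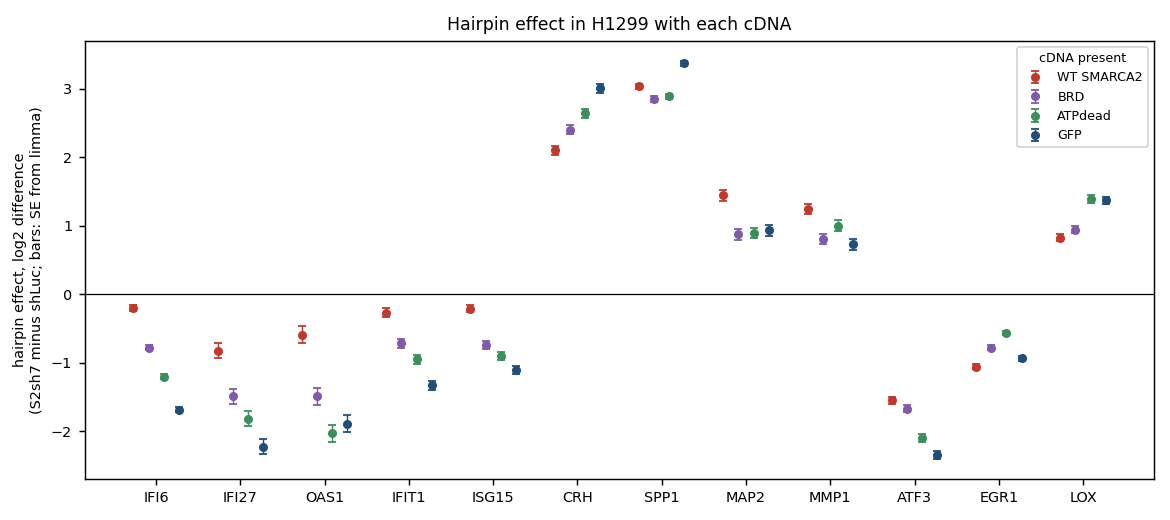
Hairpin effect (S2sh7 minus shLuc, log2, vertical axis, with the SE from limma) for 12 genes with WT, BRD or ATPdead SMARCA2 or GFP; OAS1 read under 32 in all WT arrays. IFI6 ran from -0.21 with WT through -0.78 with BRD and -1.20 with ATPdead to -1.69 with GFP, while SPP1 stayed between 2.85 with BRD and 3.37 with GFP.

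Set against cells with neither the SMARCA2 hairpin nor the cDNA, S2sh7 WT cells remained changed. S2sh7 WT minus shLuc GFP was called for 2984 genes (20.3%), 1371 higher (9.33%) and 1613 lower (11%). Scaling turned this split as well: it was 1811 and 1323 with arrays centred on their median over the tested genes and 1830 and 1451 with repeated quantile normalization. Of the 66 genes at least 2-fold changed by S2sh7 with GFP, 65 were still called in the same direction here. SPP1 stood at 2.78 log2, CRH at 1.66, MMP1 at 0.98, ID2 at 0.90 and SFT2D2 at 0.89. ATF3 stood at -1.29, GBP1 at -1.09 and the linker histone H1-4 at -1.06. H1-4 read 40.5, 34.7 and 28.2 in the S2sh7 WT arrays, against 63.1, 61.3 and 66.4 in the shLuc WT arrays, and 82.3, 72.9 and 60.5 in the shLuc GFP arrays. Of the 40 interferon genes, 36 were called lower and none higher (median -0.40). Of the 335 genes with a called difference of effects, 136 were not called in this contrast.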

How the data were processed

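The authors deposited RMA intensity values on a linear scale for 54675 probe sets on 32 arrays. The submitters' processing notes name RMA and limma. Their versions are not given in the sources used here. The design for this comparison had assumed log2 values, so log2 was taken first, without a pseudocount. Probe sets were named through GEO's platform annotation: 41097 had 1 symbol, 1801 several and 11777 none, and only the first kind was used. Each gene was read by its probe set with the highest mean over all 32 arrays. Genes over log2 5 in at least 3 of 32 arrays were tested. limma 3.58.1 in R 4.3.3 fitted 8 group means to the 24 H1299 arrays, so all groups shared 1 estimate of the spread (median residual SD 0.0703, 16 residual degrees of freedom), and p-values were adjusted by Benjamini-Hochberg over 14695 genes, called under 0.05. Differences of effects were contrasts of the same fit.

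Named genes were SMARCA2, SMARCA4, the 5 markers, the 15 largest called rises and falls without overlap, the 8 largest called differences in each direction, the 5 largest in each direction against shLuc GFP, and up to 5 members per list with the smallest adjusted p. The members and lists were chosen with earlier results of these data known. On simulated data of 14695 genes the test of the hairpin effect with WT recovered 64% of changes of 0.25 log2 and 84% of 0.5, with 0.0828% false calls. For the difference WT minus GFP it recovered 42% of 0.25, 82% of 0.5 and 72% of -0.5, so small differences can be missed. In each simulation 14495 genes were left unchanged and 50 were changed at each size. In the data 26.5% of genes were called with WT, so these rates do not carry over to that contrast. Probe set choice, filter, scaling, eBayes settings, array weights, replicate block and each array left out were tried as alternatives. The A549 arrays were used only for the filter and the choice of probe set.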

Additional observations from a re-analysis of the deposited data

Results flagged for a closer look

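The results below were singled out because the hairpin effect with WT differed, by the test of the difference in limma (adjusted p under 0.05), from that with GFP, BRD or ATPdead. Values are log2 differences of effects, WT minus the other. WT minus GFP was called for 335 genes, WT minus BRD for 57 and WT minus ATPdead for 90, and the 3 sets share the WT arrays.

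Against GFP, the interferon-stimulated genes had the largest positive differences, with IFI6 1.48, IFI27 1.40, OAS1 1.30, IFIT1 1.06, IFI44 1.0, ISG15 0.89, OASL 0.87 and IFIT3 0.85, which means that their falls were smaller with WT. Among the markers the differences were SPP1 -0.34, CRH -0.91, MAP2 0.51, MMP1 0.52 and ATF3 0.80. The rises of SPP1 and CRH were smaller with WT, those of MAP2 and MMP1 larger, and the fall of ATF3 smaller. The negative differences were IL10RB-DT -0.63, KIR2DL2 -0.58, LOX -0.54, FRMD6 -0.48, ARID5B -0.48, TFPI2 -0.47 and CXCL2 -0.47. IL10RB-DT and KIR2DL2 read under the filter level of 32 in all 12 arrays of the WT and GFP groups, so the size and rank of their differences are uncertain, as are those of OAS1, which read under it in every WT and S2sh7 GFP array. The call on ARID5B was lost under 3 of the 4 other scalings.

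Against BRD the positive differences were OAS1 0.90, PLSCR4 0.58, MAP2 0.57, IFI6 0.57, ISG15 0.53, BOC 0.52, LGALS3BP 0.48 and OASL 0.44. The call on OASL was lost under both quantile normalizations. The negative ones were C9orf72 -0.37, ZNF542P -0.34, ZNF45 -0.30, RND3 -0.29, EGR1 -0.28, CFLAR -0.28, SALL3 -0.26 and PPIF -0.26, of which C9orf72, RND3 and SALL3 were not called with arrays centred on their medians. Against ATPdead the positive differences were OAS1 1.44, IFI6 1.0, IFI27 0.99, IRF9 0.76, PPL 0.74, ISG15 0.69, SERPINE2 0.69 and IFIT1 0.68. The negative ones were CXCL2 -0.60, LOX -0.57, CRH -0.54, TNFRSF10D -0.53, CCN2 -0.52, DKK1 -0.50, EGR1 -0.49 and NAV3 -0.48.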

How the results depend on the processing

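The count of hairpin effects with WT (3895) was 2866 to 4230 under the alternatives tried and 3185 to 3526 without 1 array. Against shLuc GFP the count (2984) was 1940 in a fit of the arrays compared alone and 2229 to 2706 without 1 array. WT minus GFP (335) gave 214 without the filter, 532 with eBayes trend and robust, 148 in a fit of the arrays compared alone and 147 to 307 without 1 array. WT minus BRD (57) gave 27 with all probe sets averaged, 18 without the filter, 164 with trend and robust, 102 with array weights, 12 in a fit of the arrays compared alone and 11 to 52 without 1 array. WT minus ATPdead (90) gave 58 with arrays centred on their medians, 185 with trend and robust, 49 in a fit of the arrays compared alone and 60 to 95 without 1 array. The split of higher and lower calls moved by over 10 percentage points under a scaling for WT minus GFP, WT minus BRD and the contrast with shLuc GFP, as given in the text with each such split. It moved by less for WT (2142 and 1934 to 2434 and 1742) and for WT minus ATPdead (40 and 18 to 72 and 41). The 2 scalings over tested genes and the filter over the 24 H1299 arrays were chosen after seeing the data.

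CXCL2 with WT (-0.03, not called) turned to 0.068 with all probe sets averaged, and ran from -0.097 to 0.052 without 1 array. It was above 0 without S2sh7 WT replicate 2, and without shLuc WT replicate 3; the cause was not tested. Of the single-gene values 1873 kept direction and call under other alternatives, 32 lost the call, 1 gained it and 1 reversed. Leaving out an array, 1110 kept both, 38 lost the call, 2 gained it and 2 reversed. Samples share replicate numbers, and same-numbered deviations from the group means correlated at -0.139, 0.0990 and -0.0914. With 3 arrays per group this check cannot show whether the numbers pair the samples, and the main fit used no pairing. S2sh7 WT replicate 1 correlated best with shLuc WT replicate 3 (0.246). With replicate as a block the counts were 3758, 293, 51, 82 and 2860 for WT, WT minus GFP, BRD and ATPdead, and against shLuc GFP, and 8 SMARCA2 and SMARCA4 probe sets were called lower. Readings near or under an intensity of 32 can understate folds, which was not tested, and the sizes of such folds are uncertain.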
